A study of Sus scrofa with 60 samples.

Results

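Coagulation and complement factors are plasma proteins that the liver makes and secretes, and their transcripts were followed here in the livers of neonatal pigs across 3 diets and 2 surgeries. The members were every row of the count table whose gene name was on a list of 38 symbols. That gave 39 gene models, because the symbol C4BPA was carried by 2 of them, out of 30335 named genes. They comprised 13 clotting factors, 8 anticoagulant and fibrinolytic factors, and 18 complement gene models. All 39 passed the filter on low counts, which left 16210 genes tested.

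Clotting runs through a cascade of liver-made proteases that ends when thrombin cuts fibrinogen into fibrin. Antithrombin and the protein C pathway restrain the cascade, and plasmin dissolves the clot. Complement is a related protease cascade of innate immunity. It starts from antibody, from sugars on microbes or spontaneously, converges on C3, and ends in the pore built from C5, C6, C7, C8 and C9. Cholestatic liver disease is known for disturbed clotting, since bile is needed to absorb the vitamin K on which several factors depend.

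The study asked how bile duct ligation (BDL), a model of obstructive cholestasis, and the lipid source of the diet act together on the neonatal liver. Piglets of mixed Landrace and Hampshire sows were delivered by cesarean section shortly before term and randomized to BDL or to a sham operation. In BDL the cystic and common bile ducts were tied off, and in the sham operation the abdomen was opened and the liver briefly handled. A jugular catheter was then fitted in every pig. All pigs started on parenteral nutrition (PN). Enterally fed (ENT) pigs were then moved gradually to a milk replacer given by orogastric tube, so they too had received PN, whereas the other pigs stayed on PN with either the soy oil emulsion Intralipid (SLE) or the mixed oil emulsion SMOFlipid (MLE). Liver was taken on day 14 from 12 ENT, 10 SLE and 9 MLE pigs after sham surgery and from 10 ENT, 11 SLE and 8 MLE pigs after BDL. Each library was counted as 1 pig, although SLE-sham replicates 9 and 10 share a pig identifier in their titles.

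The 60 libraries held between 14469788 and 21374161 counts, with a median of 17254606. Between 5.46% and 10.8% of a library's counts fell on the 39 members. The median share was 8.71%, 7.42% and 7.75% in sham pigs on ENT, SLE and MLE, and 7.56%, 8.54% and 6.26% in the BDL pigs. The library labelled ENT-sham replicate 2 and the library labelled ENT-BDL replicate 1 were nearly the same: their counts differed by a chi-square of 1.87 per degree of freedom, against 15.04 for the next closest of 1770 pairs. ENT-sham replicate 2 was the lowest ENT-sham pig for 28 of the 39 members, with FGA, for example, at 5633 CPM (a read count scaled to the size of its library) against 8808 to 15850 in the other 11. Both libraries were kept under their labels, and results are also given without them.

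The defining markers of hepatocytes were all detected in every group. The median of their summed level was 130730 CPM in ENT-sham (67640 to 151630) and 89179 in ENT-BDL (67934 to 117300), 111070 in SLE-sham (91626 to 148000) and 99615 in SLE-BDL (72247 to 106010), and 127990 in MLE-sham (116960 to 172400) and 83102 in MLE-BDL (72994 to 88544). Of 13 hepatocyte markers, 4 fell and 1 rose with BDL in ENT pigs, 0 passed in SLE pigs and 8 fell in MLE pigs. The summed level of 8 cholangiocyte markers, none of them at 0 in a whole group, had medians of 127, 311 and 204 CPM in sham pigs on ENT, SLE and MLE, and 296, 364 and 350.9 CPM in the BDL pigs, with 5, 1 and 6 of the 8 past the test as higher with BDL in ENT, SLE and MLE pigs. Stellate cell and fibroblast markers, 9 in all, none of them at 0, had medians of 1226, 1739 and 1535 CPM in sham pigs on ENT, SLE and MLE (1008 to 3508, 1107 to 3234 and 1069 to 2595) and 2380.2, 2017 and 3519 CPM in BDL pigs (1154 to 3511, 1335 to 6954 and 1917 to 5198). With BDL, 2 of these 9 rose and 1 fell in ENT, 3 rose in SLE, and 4 rose and 1 fell in MLE pigs. The summed level of 8 macrophage markers, none of them at 0, had medians of 1254, 1041 and 968 CPM in sham pigs on ENT, SLE and MLE (698 to 1591, 859 to 1296 and 819 to 1214) and 862, 862 and 799.6 CPM in BDL pigs (736 to 1108, 765 to 1009 and 579 to 965). Of these 8, 2 rose and 1 fell with BDL in ENT, 1 rose and 1 fell in SLE, and 2 rose and 1 fell in MLE pigs. Of 8 tested leukocyte markers 1, 0 and 1 rose with BDL in ENT, SLE and MLE pigs, and of 6 erythroid markers 0, 0 and 1 fell. In whole liver, fewer hepatocytes and less RNA per hepatocyte cannot be told apart, and the part of any marker list in the results that follow was not tested.

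The members spanned a wide range of abundance. Per kilobase of gene length, the median level over all 60 pigs was highest for FGB, at 4812 CPM per kb and rank 13 among all genes, followed by VTN at 3110, C3 at 3062, FGA at 3034 and FGG at 2811 CPM per kb. Antithrombin (SERPINC1, 2135 CPM per kb), plasminogen (PLG, 1488), prothrombin (F2, 1247) and complement factor B (CFB, 1016) came next. Factor V (F5) was at 57.4 CPM per kb, factor XI (F11) at 35.0, one C4BPA model (gene ID 100520761) at 21.5 and MASP1 at 8.28. The spread between pigs of one group, as a standard deviation of log2 CPM, had a median of 0.29 over the members and 0.31 over all tested genes. It ran from 0.18 for F2 to 2.48 for C9.

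BDL was associated with lower levels of many members in ENT and MLE pigs, and with no change that passed the test in SLE pigs. A gene passed when its adjusted p from edgeR's quasi-likelihood test, with Benjamini-Hochberg adjustment over all 16210 genes, was under 0.05. In ENT pigs 12 members fell and 2 rose, where 8.53% of all tested genes fell and 8.89% rose. In MLE pigs 24 members fell and 0 rose, against 6.58% and 7.85% of all genes. Without the near-identical libraries the ENT counts were again 2 and 12, and 27 members fell in MLE pigs, with F10, PROC and C8A added. In SLE pigs 0 members passed by edgeR or by DESeq2, and 7 had an unadjusted p under 0.05, where 2.97% of all genes rose and 1.57% fell. The median log2 fold change of the 39 was -0.245 in ENT, 0.023 in SLE and -0.46 in MLE pigs, whereas the median of all genes was at most 0.006 in each diet. Scaling by library totals alone moved the median of all genes up by 0.103 in ENT and 0.211 in MLE pigs, and 12 members fell in MLE pigs under it. Past 2-fold as well as past the test there was 1 member in ENT (3.39% of all genes), 0 in SLE (1.49%) and 1 in MLE pigs (3.78%), in both cases the C4BPA model 100520761.

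**Figure D1:**
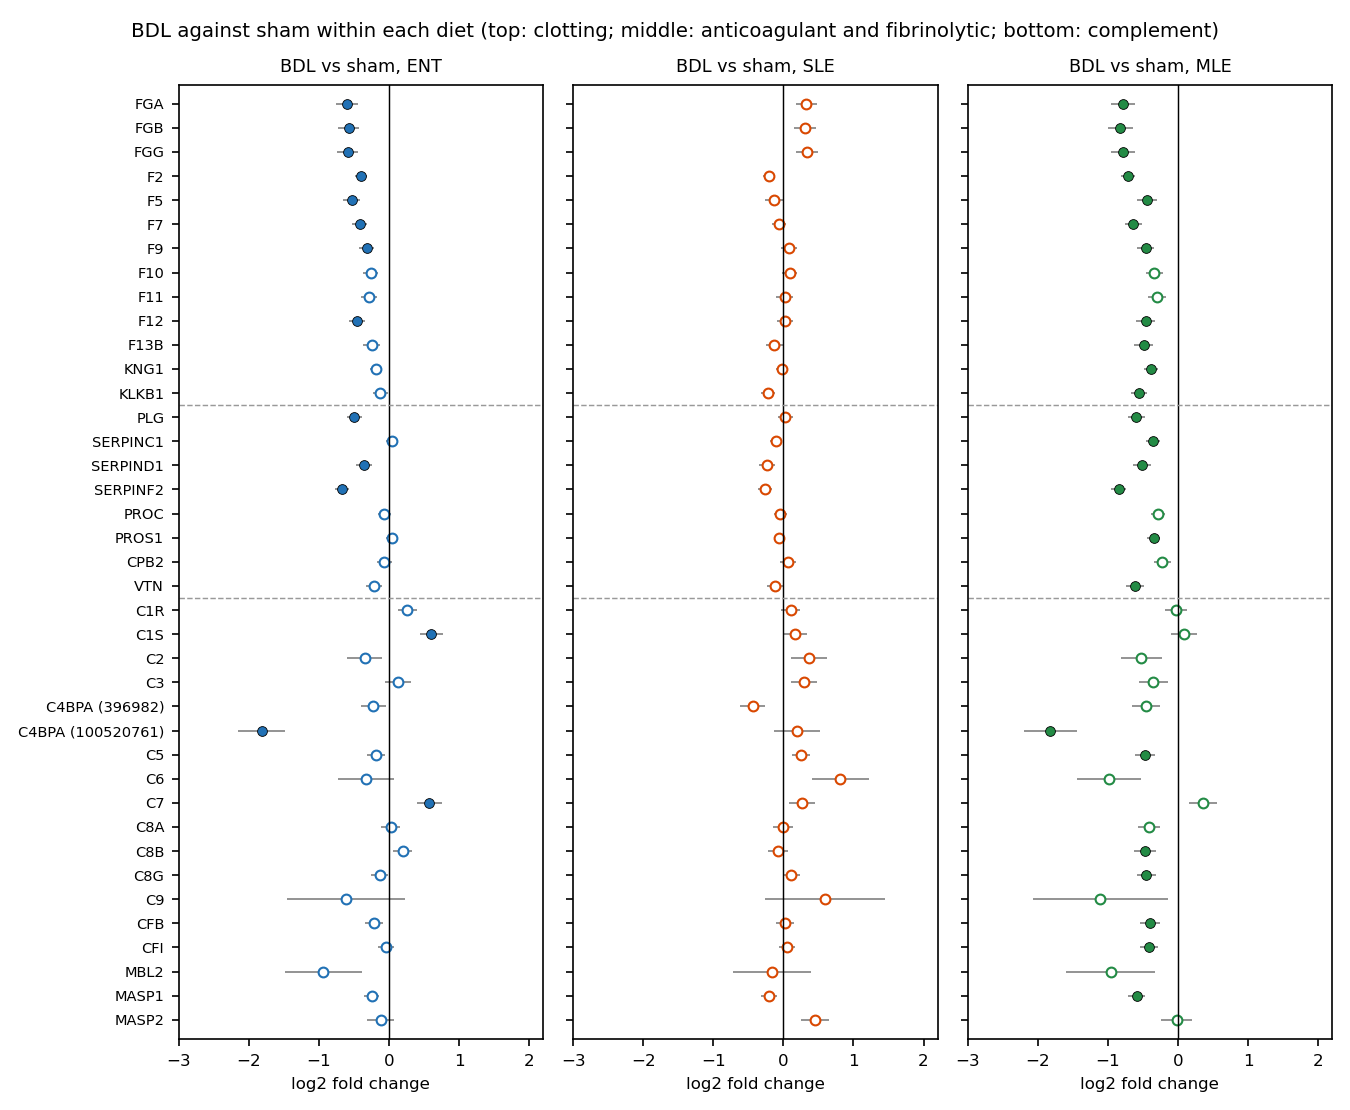
Log2 fold change of BDL over sham, with its standard error, for each of the 39 members in ENT, SLE and MLE pigs, ordered by role; filled points had an adjusted p under 0.05. The filled points number 14 in ENT, 0 in SLE and 24 in MLE pigs, and all but C1S and C7 in ENT pigs lie below 0.

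The 3 fibrinogen chains, which assemble into the clot's building block, lie next to one another on chromosome 8 of Sscrofa11.1: FGG (8:74553040-74562151), FGA (8:74574870-74584202) and FGB (8:74598170-74607409, on the opposite strand). FGA ranged from 5633 to 15848 CPM in ENT-sham pigs (median 11369) and from 5674 to 11484 in ENT-BDL pigs (median 7196). It ranged from 7257 to 12559 in SLE-sham (median 8628) and from 6328 to 20592 in SLE-BDL pigs (median 11484). It ranged from 8376 to 14568 in MLE-sham (median 10461) and from 5384.5 to 7387 in MLE-BDL pigs (median 6287). Every MLE-BDL pig was thus below every MLE-sham pig, while the ENT and SLE groups overlapped. FGA fell in ENT pigs (log2 fold change -0.60, SE 0.15, adjusted p = 0.00348) and in MLE pigs (-0.79, SE 0.17, adjusted p = 0.000913). Its value in SLE pigs was 0.33 (SE 0.15, adjusted p = 0.232). The log2 fold changes of FGB and FGG had the same order across the diets. FGB was at -0.58 (SE 0.15, adjusted p = 0.00515) in ENT and -0.82 (SE 0.17, adjusted p = 0.000567) in MLE pigs, and FGG at -0.59 (SE 0.15, adjusted p = 0.00349) and -0.79 (SE 0.17, adjusted p = 0.000711). In SLE pigs FGB was at 0.31 and FGG at 0.34, and neither passed. In SLE-BDL pigs the upper end reached 18676 CPM for FGB and 13271 CPM for FGG, each the highest value of the 60 pigs. These values and the FGA maximum of 20592 CPM all came from 1 pig, SLE-BDL replicate 7.

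**Figure D2:**
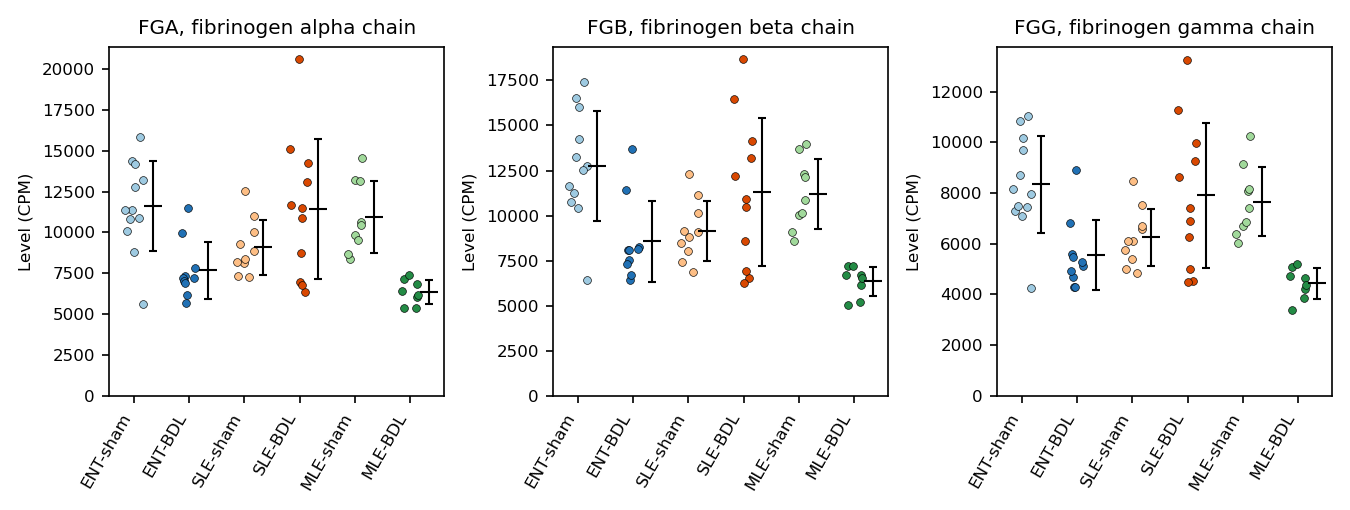
Normalized level of FGA, FGB and FGG in CPM for each pig (points) in the 6 groups, with the group mean and standard deviation. FGA in the 8 MLE-BDL pigs sits between 5384.5 and 7387 CPM, under all 9 MLE-sham pigs, and the 11 SLE-BDL pigs spread from 6328 to 20592 CPM.

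Of the other clotting factors, F2, which is cut to thrombin, had a narrow spread and fell in both diets. Its levels were 2054 to 3559 CPM in ENT-sham (median 3059) and 2074 to 2464 in ENT-BDL pigs (median 2283), and 2946 to 3714 in MLE-sham (median 3379) and 1861 to 2233 in MLE-BDL pigs (median 2100). The MLE groups did not overlap. The log2 fold change was -0.40 in ENT, -0.21 in SLE (not past the test) and -0.71 in MLE pigs. Without the near-identical libraries the ENT groups did not overlap for F2 either. Factors V, VII, IX and XII, the cofactor of the prothrombin-cutting complex and 3 proteases of the cascade, fell in ENT and in MLE pigs. Their log2 fold changes in ENT were -0.53 (F5), -0.42 (F7), -0.32 (F9) and -0.46 (F12), and in MLE -0.44, -0.64, -0.46 and -0.46. F9 in ENT pigs was close to the threshold and lost its call in 11 of the 22 fits that left out 1 pig. Kininogen (KNG1, -0.38), plasma prekallikrein (KLKB1, -0.55) and the carrier subunit of the clot cross-linking factor XIII (F13B, -0.49) fell in MLE pigs and had values of -0.18, -0.12 and -0.25 in ENT pigs that did not pass. Factors X and XI passed in neither diet, with F10 at -0.26 in ENT and -0.34 in MLE and F11 at -0.28 and -0.30. Without ENT-sham replicate 2, F10 passed in ENT (-0.31, adjusted p = 0.0257) and in MLE pigs (adjusted p = 0.0412), and F11 in ENT pigs (-0.32, adjusted p = 0.0453). With both near-identical libraries left out, F10 (adjusted p = 0.0563) and F11 (adjusted p = 0.0653) did not pass in ENT pigs, and F10 passed in MLE pigs (adjusted p = 0.0387). In all, 8 of the 13 clotting factors fell in ENT, 0 in SLE and 11 in MLE pigs, where 8.53%, 1.57% and 6.58% of all genes did. Their median log2 fold changes were -0.401, 0.019 and -0.489.

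Among the anticoagulant and fibrinolytic factors, SERPINF2 (alpha-2-antiplasmin, which blocks plasmin; 12:47934551-47942283) fell most in both ENT and MLE pigs. SERPINF2 ran from 832 to 1846 CPM in ENT-sham (median 1624) and from 848 to 1240.3 in ENT-BDL pigs (median 980.1). It ran from 1031 to 1608 CPM in SLE-sham (median 1188) and from 701 to 1317 in SLE-BDL pigs (median 1019.8 CPM). In MLE-sham pigs it ran from 1343 to 1866 (median 1614) and in MLE-BDL pigs from 812 to 1036 (median 869). All 8 MLE-BDL pigs were below all 9 MLE-sham pigs, and the ENT groups overlapped only through ENT-sham replicate 2, the library at 832 CPM against 1429 to 1846 in the other 11. The log2 fold change was -0.67 (SE 0.10, adjusted p = 1.14e-06) in ENT and -0.85 (SE 0.11, adjusted p = 2.28e-07) in MLE pigs. In SLE pigs it was -0.26 (adjusted p = 0.109).

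PLG, the precursor of plasmin, had medians of 5604 CPM in sham and 3697 in BDL pigs on ENT, and of 4277 and 2903 on MLE. Its log2 fold change was -0.50 (SE 0.11, adjusted p = 0.000472) in ENT and -0.59 (SE 0.12, adjusted p = 0.00029) in MLE pigs. Its SLE medians were 3692 and 4016 CPM, a log2 fold change of 0.02. Heparin cofactor II (SERPIND1) fell in ENT (-0.35, SE 0.12, adjusted p = 0.0263) and in MLE pigs (-0.51). VTN, vitronectin, an adhesive protein that also binds the membrane attack complex, fell in MLE pigs (-0.62, SE 0.13, adjusted p = 0.000461), as did antithrombin (SERPINC1, -0.36) and the protein C cofactor protein S (PROS1, -0.34). These 3 did not pass in ENT pigs, where SERPINC1 and PROS1 were both at 0.04. Protein C itself (PROC) was at -0.07, -0.04 and -0.28 in ENT, SLE and MLE pigs and CPB2, a carboxypeptidase that slows fibrinolysis, at -0.06, 0.06 and -0.22, none past the test. Without ENT-sham replicate 2, PROC passed in MLE pigs (-0.29, adjusted p = 0.0419). In all, 3 of 8 fell in ENT, 0 in SLE and 6 in MLE pigs, where 8.53%, 1.57% and 6.58% of all genes did.

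Full separation of the groups was counted next. In MLE pigs every BDL pig was below every sham pig for 14 of the 39 members, namely FGA, FGB, FGG, F2, F13B, KNG1, KLKB1, PLG, SERPINC1, SERPIND1, SERPINF2, PROS1, VTN and MASP1, where 1.25% of all tested genes were separated in that direction. In ENT pigs 0 members were separated, as were 0.0617% of all genes, and without the near-identical libraries 4 were, F2, PLG, SERPINF2 and the C4BPA model 100520761, against 0.876% of all genes. In SLE pigs 0 were separated, where 0.0185% of all genes were.

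Of the 18 complement gene models, 2 rose and 1 fell in ENT pigs, where 8.89% and 8.53% of all genes did, so that these counts lie near the background. In SLE pigs 0 passed, and in MLE pigs 7 fell, against 6.58% of all genes. Their median log2 fold changes were -0.159 in ENT, 0.141 in SLE and -0.456 in MLE pigs. Without ENT-sham replicate 2, MASP1 also fell in ENT pigs (-0.30, adjusted p = 0.0282), but not with both near-identical libraries left out (-0.27, adjusted p = 0.0612). The 2 rises in ENT pigs were C1S, a protease of the C1 complex that starts the classical pathway, and C7, the component that anchors the membrane attack complex in the membrane. C1S ran from 583 to 1802 CPM in ENT-sham (median 1125) and from 1215 to 2515 in ENT-BDL pigs (median 1624), with a log2 fold change of 0.60 (SE 0.16, adjusted p = 0.00608). C7 ran from 58.8 to 246 CPM (median 109) and from 101 to 250.5 (median 180.2), with a log2 fold change of 0.58 (SE 0.18, adjusted p = 0.0175). The top ENT-sham value of C7 was again replicate 2, the other 11 lying between 58.8 and 147 CPM. C1R, the partner protease of C1S, was at 0.26 and did not pass. C3, the hub of the cascade and the most abundant complement transcript, passed in no diet, with log2 fold changes of 0.13 in ENT, 0.29 in SLE and -0.35 in MLE pigs.

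C4BPA encodes the alpha chain of C4b-binding protein, an inhibitor of the classical pathway. Its 2 gene models lie near one another on chromosome 9, 100520761 at 67726159-67774369 and 396982 at 67815544-67827509. If the 2 models share sequence, which was not examined, reads may be divided between them in counting, so both are uncertain. Model 100520761 fell about as far in ENT as in MLE pigs. It ran from 51.2 to 371 CPM in ENT-sham (median 225) and from 36.9 to 97.7 in ENT-BDL pigs (median 68.6), a log2 fold change of -1.82 (SE 0.34, adjusted p = 8.26e-05). It ran from 33.5 to 337 CPM in MLE-sham (median 92.7) and from 20.3 to 55.1 in MLE-BDL pigs (median 32.4), a log2 fold change of -1.82 (SE 0.38, adjusted p = 0.000515). In SLE pigs the ranges were 22.3 to 148 (median 41.3) and 27.9 to 169 CPM (median 53.8), with a log2 fold change of 0.19 (adjusted p = 0.818). The SLE-sham median thus lay below that of ENT-BDL pigs. Model 396982 had log2 fold changes of -0.22, -0.44 and -0.46 in ENT, SLE and MLE pigs, none past the test.

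**Figure D3:**
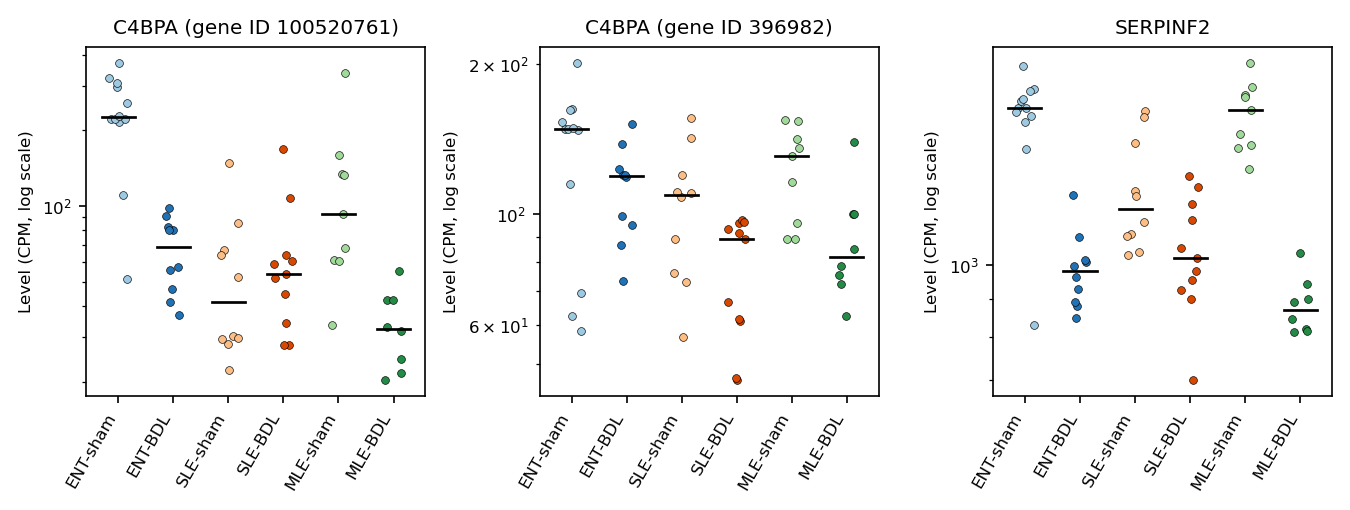
Normalized level, in CPM on a log axis, of both C4BPA gene models and of SERPINF2 in each pig of the 6 groups, with lines at the group medians. For model 100520761 the ENT-sham median of 225 CPM stands above the other 5 groups, which lie between 32.4 and 92.7, and for SERPINF2 the 8 MLE-BDL pigs lie below the 9 MLE-sham pigs.

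The other complement falls in MLE pigs were MASP1 (-0.59, SE 0.12, adjusted p = 0.000484), a protease of the lectin pathway, C5 (-0.47, SE 0.14, adjusted p = 0.0185) and the C8 beta chain C8B (-0.47, SE 0.15, adjusted p = 0.0312), both of the membrane attack complex, the C8 gamma chain C8G (-0.45), the C3b-cleaving factor I (CFI, -0.41) and CFB (-0.40), the protease of the alternative pathway. CFB was close to the threshold and lost its call in 10 of the 17 fits that left out 1 pig. Its highest MLE-sham value, 4777 CPM in replicate 2, stood apart from 2204.5 to 3240 CPM in the other 8, and without that pig its adjusted p was 0.143. C2, C6, C8A, C9, MBL2 and MASP2 did not pass in any diet.

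The difference in BDL response between diets was tested directly for every member. Between SLE and ENT pigs 5 members differed (2.33% of all genes did): the 3 fibrinogen chains, PLG and C4BPA model 100520761, in each case with the higher response in SLE pigs. The difference was 0.93 log2 units for FGA (95% interval 0.503 to 1.352, adjusted p = 0.00949), 0.88 for FGB (0.457 to 1.309, adjusted p = 0.0152) and 0.93 for FGG (0.51 to 1.346, adjusted p = 0.00839). It was 0.52 for PLG (0.225 to 0.812, adjusted p = 0.0458) and 2.01 for C4BPA (1.089 to 2.922, adjusted p = 0.00984). PLG was close to the threshold and lost its call in 32 of the 43 fits that left out 1 pig, and with the identifier number as a block (adjusted p = 0.0669), under which F12 passed (0.62, adjusted p = 0.0342). Without the near-identical libraries 6 members differed, SERPINF2 being the added one (0.45, adjusted p = 0.0211). Between MLE and SLE pigs the fibrinogen chains differed (0.265% of all genes did), at -1.11 for FGA (-1.568 to -0.661, adjusted p = 0.0131), -1.13 for FGB (-1.583 to -0.671, adjusted p = 0.0127) and -1.13 for FGG (-1.575 to -0.681, adjusted p = 0.0107). Both comparisons share the SLE pigs. Without the near-identical libraries 7 members differed between MLE and SLE, adding F2, PLG, SERPINF2 and C4BPA model 100520761, and without SLE-BDL replicate 6 there were 10. Between MLE and ENT pigs 0 members differed in this test by edgeR or by DESeq2, where 0.0617% of all genes did, and 10 members had an unadjusted p under 0.05. For FGA that difference was -0.19 (SE 0.23).

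Diet was compared next, first in sham pigs, where the ducts were open. The diet comparisons share their ENT pigs with one another and with the ENT comparison of surgeries, so they are not independent of each other. In SLE-sham against ENT-sham pigs 20 members were lower and 1 was higher, where 13.6% and 13.9% of all genes were. In MLE-sham against ENT-sham pigs 9 were lower and 0 higher, against 10.4% and 10.7% of all genes. Between the PN groups 0 passed by edgeR and 2 by DESeq2 (0.37% of all genes were higher and 0.629% lower in MLE), with 6 at an unadjusted p under 0.05. Past 2-fold there were 3 members in the first comparison (5.24% of all genes), 1 in the second (3.71%) and 0 in the third (0.463%). Of the 13 hepatocyte markers, 6 were lower in SLE-sham than in ENT-sham pigs, and 2 were lower and 1 higher in MLE-sham pigs. Of 8 cholangiocyte markers 3 and 2 were higher in SLE-sham and MLE-sham than in ENT-sham pigs, and of 8 macrophage markers 2 and 0. Of 8 tested leukocyte markers 1 and 0 were higher, and of 6 erythroid markers 1 and 1 were lower. Their part in these differences was not tested.

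Of the clotting factors, 9 of 13 were lower in SLE-sham than in ENT-sham pigs, where 13.6% of all genes were. They were led by F12, the starter of the contact pathway, with a log2 difference of -0.73 (SE 0.12, adjusted p = 1.87e-06), then F9 (-0.62, SE 0.11, adjusted p = 1.35e-05) and F7 (-0.50, SE 0.10, adjusted p = 0.000193). F12 ran from 473 to 893 CPM in ENT-sham (median 729), from 387 to 549.7 in SLE-sham (median 444) and from 415 to 719 in MLE-sham pigs (median 552). F9 ran from 565 to 912 CPM in ENT-sham (median 778), from 367 to 569 in SLE-sham (median 507) and from 487 to 641 in MLE-sham pigs (median 548). The SLE-sham and ENT-sham ranges of both genes overlapped only through ENT-sham replicate 2, the other 11 pigs starting at 676.8 CPM for F12 and 658.9 for F9. The other 6 were F10, FGB, FGG, F5, F11 and KNG1, between -0.48 and -0.26. Of these 9, F12 (-0.45, SE 0.12, adjusted p = 0.00467), F10 (-0.44, SE 0.11, adjusted p = 0.00302) and F9 (-0.43, SE 0.11, adjusted p = 0.00354) were lower in MLE-sham pigs as well. With ENT-sham replicate 2 left out, FGA also passed as lower in SLE-sham pigs (-0.42, adjusted p = 0.0227), and F7 (-0.30, adjusted p = 0.0306) and F11 (-0.35, adjusted p = 0.0361) in MLE-sham pigs. KLKB1 passed in SLE-sham pigs when both near-identical libraries were left out (-0.25, adjusted p = 0.0468).

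Of the anticoagulant and fibrinolytic factors, PROC, CPB2, VTN and PLG were lower in both PN sham groups than in ENT-sham pigs, and SERPINF2 in SLE-sham pigs. CPB2 ran from 642 to 1174 CPM in ENT-sham (median 869.7), from 512 to 739 in SLE-sham (median 607) and from 454 to 626 in MLE-sham pigs (median 564). Every MLE-sham pig was below every ENT-sham pig for CPB2 alone of the 39 members, where 0.561% of all genes were separated so. In the SLE-sham comparison the largest log2 differences were -0.57 for VTN (SE 0.11, adjusted p = 8.14e-05), -0.55 for PLG (SE 0.11, adjusted p = 4.18e-05) and -0.54 for PROC (SE 0.09, adjusted p = 5.3e-06), with CPB2 at -0.50. In the MLE-sham comparison they were -0.66 for CPB2 (SE 0.11, adjusted p = 1.22e-05), -0.47 for PROC (SE 0.09, adjusted p = 0.000154) and -0.34 for VTN (SE 0.12, adjusted p = 0.0278). SERPINC1, SERPIND1 and PROS1 passed in neither, lying between -0.26 and -0.04. Without ENT-sham replicate 2, SERPIND1 (-0.33, adjusted p = 0.014) and PROS1 (-0.23, adjusted p = 0.0323) passed as lower in SLE-sham pigs.

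Complement model C4BPA 100520761 was lower in SLE-sham (-2.08, SE 0.34, adjusted p = 3.28e-06) and in MLE-sham pigs (-0.98, SE 0.34, adjusted p = 0.0312) than in ENT-sham pigs. MBL2, the mannose-binding lectin that opens the lectin pathway, was lower in both too (-1.46, SE 0.56, adjusted p = 0.0452 and -2.01, SE 0.60, adjusted p = 0.0111). C6 (-1.04, SE 0.40, adjusted p = 0.0473), C2 (-0.66), C5 (-0.39) and MASP1 (-0.34) were lower in SLE-sham pigs too. C7 was higher in SLE-sham pigs (0.51, SE 0.18, adjusted p = 0.0258), a call lost without SLE-sham replicate 10 (adjusted p = 0.0539). C6 and MBL2 in SLE-sham pigs each lost their call in 14 of the 22 fits that left out 1 pig. Without the near-identical libraries 24 members were lower in SLE-sham pigs and 12 in MLE-sham pigs, C2 (-0.70, adjusted p = 0.038) was lower and C7 (0.48, adjusted p = 0.0265) higher in MLE-sham pigs, and F2 (0.32) and SERPINF2 (0.34) passed as higher in MLE-sham than in SLE-sham pigs.

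**Figure D4:**
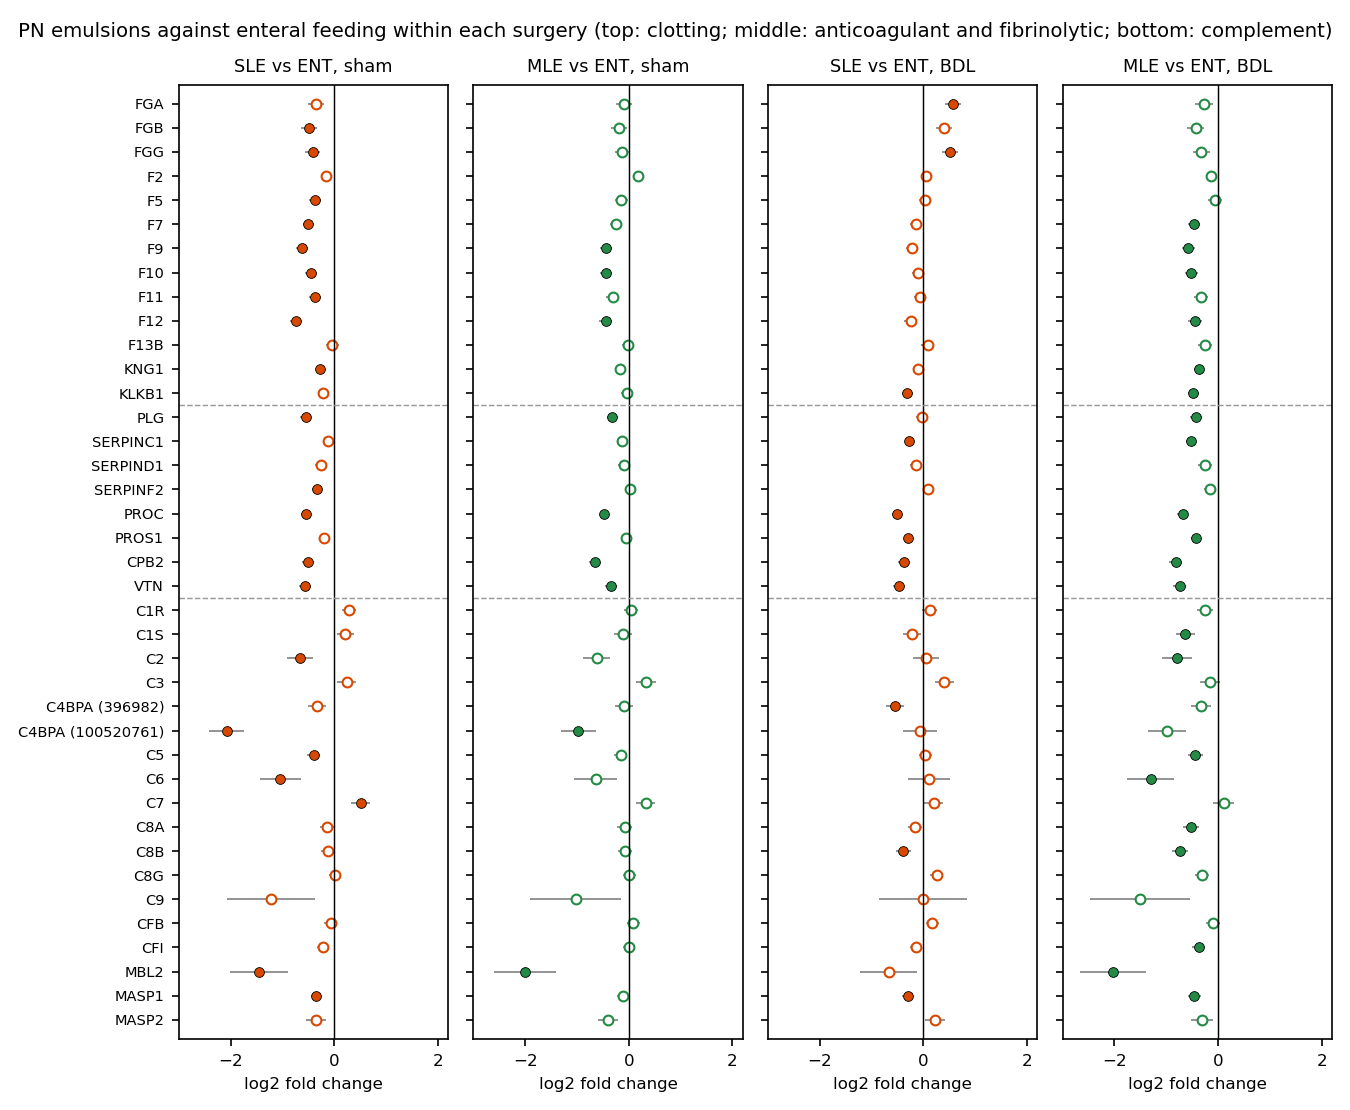
Log2 difference, with its standard error, of SLE and MLE from ENT pigs for the 39 members, in sham pigs and in BDL pigs; filled points had an adjusted p under 0.05. Among BDL pigs FGA and FGG lie above 0 for SLE, at 0.58 and 0.51, while CPB2, VTN and PROC lie at or below -0.69 for MLE.

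Diets were then compared in BDL pigs. In SLE-BDL against ENT-BDL pigs 2 members were higher and 9 lower, where 10.4% and 9.17% of all genes were, and 0 were past 2-fold (3.13% of all genes). In MLE-BDL against ENT-BDL pigs 0 were higher and 21 lower, against 8.53% and 8.27% of all genes, and 2 were past 2-fold (3.18%). With the identifier number as a block, which several ENT pigs share with 0 MLE pigs, 0 were higher and 19 lower. Leaving out the near-identical libraries made 24 lower there, with FGB, SERPIND1 and C4BPA model 100520761 added. In MLE-BDL against SLE-BDL pigs 0 were higher and 5 lower, against 0.216% and 0.691% of all genes, and 0 were past 2-fold (0.37%). F10 was added there with the near-identical libraries left out (-0.42, adjusted p = 0.0489). Of 13 hepatocyte markers 1, 1 and 0 were lower in these 3 comparisons. Of 8 cholangiocyte markers 1, 2 and 0 were higher, and of 9 stellate cell and fibroblast markers 1 was higher in each comparison with ENT-BDL pigs and 1 was lower in MLE-BDL than in SLE-BDL pigs. Of 6 erythroid markers 0, 2 and 0 were lower, and their summed level had a median of 47.5 CPM (11.5 to 184) on ENT, 34.2 (6.67 to 120.3) on SLE and 13.6 (5.98 to 34.3) on MLE. Their part was not tested.

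Against ENT-BDL pigs, FGA (0.58, SE 0.15, adjusted p = 0.00531) and FGG (0.51, SE 0.15, adjusted p = 0.0121) were higher in SLE-BDL pigs. FGB was at 0.40 (adjusted p = 0.0587), and KLKB1 was lower (-0.31, SE 0.10, adjusted p = 0.0246). FGG lost its call with the identifier number as a block (0.39, adjusted p = 0.0662), and FGB passed without ENT-sham replicate 2 (adjusted p = 0.0426) but not with both near-identical libraries left out (adjusted p = 0.0821). In MLE-BDL pigs 6 of the 13 clotting factors were lower, namely F9 (-0.58, SE 0.12, adjusted p = 0.00045), F10 (-0.51, SE 0.12, adjusted p = 0.00168), KLKB1 (-0.47, SE 0.11, adjusted p = 0.00183), F7, F12 and KNG1. In that comparison 8.27% of all genes were lower. Between the PN groups the fibrinogen chains were lower in MLE-BDL than in SLE-BDL pigs, with FGA at -0.85 (SE 0.17, adjusted p = 0.00485), FGB at -0.83 (SE 0.17, adjusted p = 0.00544) and FGG at -0.83 (SE 0.16, adjusted p = 0.00485). This held in every fit that left out 1 pig, but with the pig identifier number as a block FGA (-0.72, adjusted p = 0.119), FGB (-0.73, adjusted p = 0.114) and FGG (-0.72, adjusted p = 0.119) did not pass, and when edgeR was fitted on these groups alone 0 members passed. Without SLE-BDL replicate 6, 10 members passed between the PN groups, and fitted on its own groups the SLE-BDL comparison with ENT-BDL pigs called 3 members where 11 passed over all pigs.

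PROC and CPB2 were lower in both PN groups than in ENT-BDL pigs. PROC ran from 1147 to 1719 CPM in ENT-BDL (median 1468), from 709 to 1229.6 in SLE-BDL (median 1091) and from 780.2 to 1033 in MLE-BDL pigs (median 875). CPB2 ran from 631 to 1169.9 CPM in ENT-BDL (median 774), from 388 to 919 in SLE-BDL (median 685) and from 429.6 to 527 in MLE-BDL pigs (median 463). For PROC and CPB2, and also for PLG and VTN, all MLE-BDL pigs were below all ENT-BDL pigs, as were 1.26% of all genes. The MLE-BDL differences from ENT-BDL were -0.82 for CPB2 (SE 0.12, adjusted p = 1.63e-06), -0.74 for VTN (SE 0.13, adjusted p = 1.84e-05) and -0.69 for PROC (SE 0.10, adjusted p = 1.5e-06), and SERPINC1, PROS1 and PLG were lower as well. The SLE-BDL differences were -0.52 for PROC (SE 0.09, adjusted p = 3.71e-05), -0.47 for VTN (SE 0.11, adjusted p = 0.00215) and -0.38 for CPB2 (SE 0.11, adjusted p = 0.0113), with SERPINC1 and PROS1 lower as well. CPB2 was lower in MLE-BDL than in SLE-BDL pigs by a margin close to the threshold (-0.44, SE 0.12, adjusted p = 0.0495), and did not pass with the identifier number as a block (-0.42, adjusted p = 0.26).

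Of the complement factors, 9 of 18 were lower in MLE-BDL than in ENT-BDL pigs, where 8.27% of all genes were. They were MBL2 (-2.03, SE 0.64, adjusted p = 0.0218), C6 (-1.30, SE 0.45, adjusted p = 0.0382), C2 (-0.79, SE 0.28, adjusted p = 0.0435), C8B (-0.73), C1S (-0.63), C8A (-0.52), MASP1 (-0.46), C5 (-0.44) and CFI (-0.37). In SLE-BDL pigs C4BPA model 396982 (-0.55, SE 0.18, adjusted p = 0.0236), C8B (-0.39, SE 0.14, adjusted p = 0.0385) and MASP1 (-0.30, SE 0.11, adjusted p = 0.0423) were lower. These 3 of 18 stand against 9.17% of all genes lower in that comparison. C8G was lower in MLE-BDL than in SLE-BDL pigs (-0.57, SE 0.13, adjusted p = 0.0169), with medians of 190.6 and 281 CPM, and also with the identifier number as a block (-0.71, adjusted p = 0.0402). C6 against ENT-BDL lost its call in 8 of 18 fits that left out 1 pig.

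C9, MBL2 and C6 varied more between pigs of one group than any other member, with standard deviations of 2.48, 1.35 and 1.00 log2 units. The pig titles carry a 3-digit number shared by several pigs, whose meaning is not given, and the levels of these genes moved with it. C9, which polymerizes to form the pore of the membrane attack complex (16:24521318-24575939), ran from 4.08 to 128 CPM with a median of 13.3 in the 14 pigs of 2 of the 8 numbers. In the 38 pigs of 5 other numbers it ran from 287 to 1572 CPM with a median of 664. The 8 pigs of the remaining number ran from 11.7 to 857 CPM, 6 of them at or under 170.4 CPM and the other 2 at 404 and 857. In all, 20 of 60 pigs were under 200 CPM, a level by which the numbers were sorted after C9 was seen.

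After group means were removed, the identifier number accounted for 83.3% of the variation in log2 C9, 70.6% for MBL2 and 46.7% for C6. It accounted for 48.7% for SERPIND1, 43.4% for C2 and 41.2% for F10, and for 11.3% for VTN, the lowest of the members. MBL2 (14:97103926-97107635) had a median of 12.9 CPM in the 2 numbers of low C9, 79.4 in the mixed number and 51.6 in the other 5 numbers. C6 (16:26023646-26089518), which lies on chromosome 16 as do C7 and C9, had medians of 72.3, 184 and 281 CPM. In the other 5 numbers taken singly, the MBL2 medians were 21.9, 26.4, 62.6, 79.0 and 106 CPM. Lower MBL2 was thus not confined to the numbers of low C9. The numbers were spread unevenly over the groups: the 2 numbers of low C9 held 1 of 12 ENT-sham, 2 of 10 SLE-sham and 5 of 9 MLE-sham pigs, and 1 of 10 ENT-BDL, 0 of 11 SLE-BDL and 5 of 8 MLE-BDL pigs. The group medians of C9 were 1050.4, 358 and 128 CPM in sham pigs and 524, 448 and 17.9 CPM in BDL pigs, in the same order of diets, each group spanned at least from 34.3 to 698 CPM, and 0 of 9 comparisons of C9 between groups passed the test.

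With the number as a block, MBL2 was lower than in the matching ENT group by 4 tests: -1.94 (adjusted p = 4.6e-05) in SLE-sham, -1.47 (adjusted p = 0.0119) in MLE-sham, -1.25 (adjusted p = 0.00556) in SLE-BDL and -1.30 (adjusted p = 0.0388) in MLE-BDL pigs. The SLE-BDL value without the block was -0.67 (adjusted p = 0.425). C6 was lower in SLE-sham (-1.42, adjusted p = 0.00248) and MLE-BDL pigs (-1.43, adjusted p = 0.0222), as without the block, and C9 passed in no comparison.

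**Figure D5:**
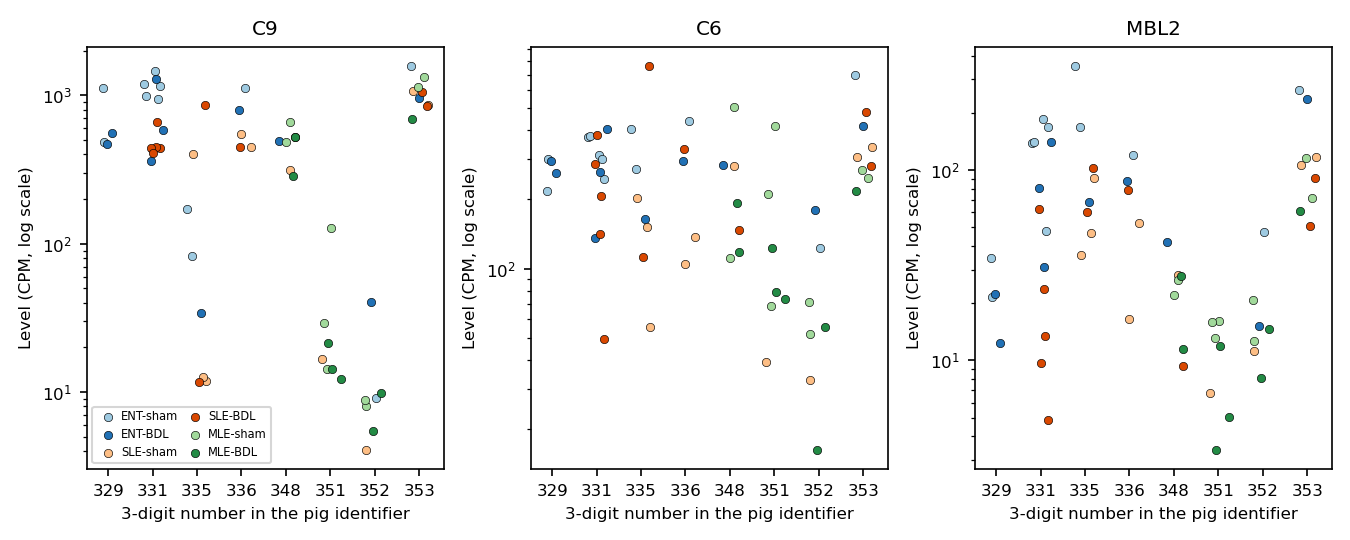
Level of C9, C6 and MBL2, in CPM on a log axis, in each of the 60 pigs, set out by the 3-digit number in the pig titles and coloured by group. C9 lies at or under 128 CPM in every pig of 2 numbers, at or over 287 CPM in every pig of 5 others, and on both sides in the 8 pigs of the remaining number.

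Partner subunits of one protein were compared across the 60 pigs after group means were removed, over 7 pairs with 100000 permutations within groups. The fibrinogen chains moved nearly together, with Pearson's r of 0.977 for FGA and FGB, 0.965 for FGA and FGG and 0.989 for FGB and FGG, and Spearman's rho of 0.966, 0.937 and 0.974. C8A and C8B, which neighbour one another on chromosome 6, had r of 0.877 and rho of 0.824, and C1R and C1S, both on chromosome 5, had r of 0.861 and rho of 0.859. For these 5 pairs p was 1.0e-05, the smallest the permutations can give (adjusted p = 1.4e-05). C8G was less tied to its partners, with r of 0.381 and rho of 0.361 to C8A (permutation p = 0.008 and 0.00901, adjusted 0.00933 and 0.0105) and r of 0.342 and rho of 0.347 to C8B (permutation p = 0.0189 and 0.0112, adjusted 0.0189 and 0.0112). With the near-identical libraries left out, rho passed for neither C8G pair (adjusted p = 0.0509 for each), and r passed for C8A (0.328, adjusted p = 0.0321) but not for C8B (0.291, adjusted p = 0.0588). Without the 2 pigs farthest from the median of the first gene, r was 0.971, 0.953, 0.985, 0.83, 0.839, 0.444 and 0.394 in the same order. With the identifier number also removed it was 0.975, 0.961, 0.991, 0.913, 0.862, 0.399 and 0.345.

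Genes of the same pathways that were not members, many of them made by cells other than hepatocytes, included larger rises with BDL. Of 25 other coagulation genes, 6 rose and 4 fell in ENT, 5 rose and 0 fell in SLE, and 6 rose and 7 fell in MLE pigs. The rising shares of all genes were 8.89%, 2.97% and 7.85%, and the falling shares 8.53%, 1.57% and 6.58%, in the same order of diets. PLAT, tissue plasminogen activator, rose in all 3 diets, by log2 fold changes of 1.77 (adjusted p = 0.00015), 1.94 (adjusted p = 0.00075) and 2.97 (adjusted p = 8.24e-07). In MLE pigs HRG, histidine-rich glycoprotein, fell by 1.66 on the log2 scale (adjusted p = 5.61e-06).

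In the diet comparisons, APOH, a liver-made phospholipid-binding plasma protein, was lower in SLE-sham than in ENT-sham pigs (log2 difference -0.90, adjusted p = 2.89e-08). Of the other coagulation genes, 6 were higher and 4 lower between those sham groups. MLE-sham differed from ENT-sham pigs in 3 higher and 3 lower, SLE-BDL from ENT-BDL in 5 higher and 3 lower, and MLE-BDL from ENT-BDL in 3 higher and 5 lower. The shares of all genes, higher and lower, were 13.9% and 13.6%, 10.7% and 10.4%, 10.4% and 9.17%, and 8.53% and 8.27% in these 4 comparisons, so that several of these counts lie near the background. Between the PN groups 0 passed in either surgery.

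Of 26 other complement genes, 2 rose and 6 fell in ENT, 1 rose and 1 fell in SLE, and 4 rose and 5 fell in MLE pigs. The shares of all genes are those given for the surgery comparisons of the coagulation genes, and the rises in ENT and the counts in SLE pigs lie near them. The falls in ENT pigs were led by CPN2 (-1.27, adjusted p = 2.5e-06), a subunit of the carboxypeptidase that inactivates complement anaphylatoxins, and by C4A (-1.26, adjusted p = 9.65e-05). Both also differed in BDL response between SLE and ENT pigs, CPN2 at 1.63 (adjusted p = 0.000346) and C4A at 1.495 (adjusted p = 0.007). C4BPB, the beta chain that joins the product of C4BPA in C4b-binding protein, fell in MLE pigs by 0.67 on the log2 scale (adjusted p = 0.000228). ITGAX, a complement receptor subunit of leukocytes, rose in MLE pigs (1.74, adjusted p = 7.11e-05).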

How the data were processed

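Liver RNA of 60 pigs was sequenced as 1 library each. The authors deposited raw read counts per gene; the submitters' processing notes name HISAT2 2.0.5, StringTie 1.3.3 and featureCounts 1.5.0-p3 and the build Sscrofa11.1. Whether counting used strand is not given in the sources used here. Of 30359 features, 24 without a gene name were left out (0.00842% to 0.0407% of counts). The deposited coordinates and gene lengths were used as given, and 0 per-sample columns were left unused.

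Groups came from the diet and surgery labels. Counts were scaled by TMM, filtered by filterByExpr (16210 genes) and fitted over all 60 pigs with edgeR 4.0.16 (R 4.3.3), quasi-likelihood, with contrasts of surgery within diet, diet within surgery and their interactions. Levels are TMM-scaled CPM. The steps were tested on simulated data. The study itself used DESeq2 with a fold threshold of 2; here a change of any size counted at an adjusted p under 0.05, and the 2-fold threshold and DESeq2 1.42.0 were alternatives, as were scaling, filtering, blocks and leaving out pigs. Correlations used scipy 1.17.1.

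Members and lists were chosen with earlier results of these data known. All members are described by role; statistics in full are given for the 3 largest rises and 3 largest falls of each role past the test, for members past 2-fold and for tests of response, and at most 2 rises and 2 falls are named in each list of other genes. Levels and further values of other members were chosen after they were seen. Replicate numbers did not pair the pigs (82 same-numbered pairs, r from -0.231 to 0.381). Replicates 9 and 10 of SLE-sham share a pig identifier in their titles. Their counts differ by more than sampling noise and they were kept as 2, but 2 samples of 1 pig and 2 pigs cannot be told apart on that basis. Without replicate 10, C7 in SLE-sham against ENT-sham pigs and the PLG response of SLE against ENT pigs (adjusted p = 0.0586) did not pass. No promoter or protein sequence was used here.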

Additional observations from a re-analysis of the deposited data

Results flagged for a closer look

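In 10 of 156 sets of pigs of 1 gene and group, 1 pig stood apart from the rest by Dixon's test, where chance gives about 1 in 20, or 7.8. ENT-sham and SLE-BDL, with 12 and 11 pigs, are above the size the test covers and were not tested. F12 was 279 CPM in ENT-BDL replicate 4 against 490 to 700.0 in the other pigs of its group. KNG1 was 1650 CPM in MLE-sham replicate 2 against 1170 to 1390, and 847 in MLE-BDL replicate 1 against 985 to 1060. C7 was 75.1 CPM in SLE-sham replicate 2 against 144 to 212. C8A was 773 CPM in SLE-sham replicate 3 against 521 to 637. C8G was 187 CPM in SLE-sham replicate 1 against 246 or more. CFB was 4780 CPM in MLE-sham replicate 2 against 2200 to 3240. CFI was 830 CPM in ENT-BDL replicate 1, which is nearly the same as the library labelled ENT-sham replicate 2, against 1120 to 1480, and 788 CPM in MLE-BDL replicate 1 against 923 to 1020. MASP2 was 156 CPM in MLE-BDL replicate 2 against 67.8 to 99.8.

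The BDL response differed between diets for 5 members by the interaction test in edgeR. Between SLE and ENT pigs the difference was 0.93 log2 units for FGA, 0.88 for FGB, 0.93 for FGG, 0.52 for PLG and 2.01 for C4BPA model 100520761. Between MLE and SLE pigs it was -1.11 for FGA, -1.13 for FGB and -1.13 for FGG.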

How the results depend on the processing

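No member past the test changed direction under any alternative run. The counts of members past the test moved by more than 1.5 times as follows; the cause was not tested. With DESeq2 there were 9 for MLE-BDL against SLE-BDL pigs (5 by edgeR), 2 for MLE-sham against SLE-sham (0) and 8 for the response of MLE against SLE pigs (3). With edgeR on the compared groups only, SLE-BDL against ENT-BDL pigs gave 3 (11), MLE-BDL against SLE-BDL 0 and MLE-sham against SLE-sham 1. Scaling by library totals gave 12 for BDL in MLE pigs (24) and 1 in SLE pigs (0). The identifier number as a block gave 1 for BDL in SLE pigs, 1 for MLE-BDL against SLE-BDL and 2 for MLE-sham against SLE-sham. A minimum of 10 counts in every pig gave 6 for the response of MLE against SLE pigs. Without the near-identical ENT libraries the latter was 7, MLE-sham against SLE-sham pigs gave 2, and r for C8B and C8G was 0.291 (permutation adjusted p = 0.0588). A 2-fold threshold left 1 member for BDL in ENT, 1 in MLE, 0 for SLE-BDL against ENT-BDL, 2 for MLE-BDL against ENT-BDL, 0 for MLE-BDL against SLE-BDL, 3 for SLE-sham against ENT-sham, 1 for MLE-sham against ENT-sham and 1 for the response of SLE against ENT pigs.

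Leaving out 1 pig at a time, the counts ran from 0 to 1 for BDL in SLE pigs (1 without SLE-BDL replicate 7), 3 to 10 for MLE-BDL against SLE-BDL (10 without SLE-BDL replicate 6), 0 to 2 for MLE-sham against SLE-sham (2 without SLE-sham replicate 2 or 3) and 3 to 10 for the response of MLE against SLE pigs (10 without SLE-BDL replicate 6). With the replicate block, which pairs nothing here, 13, 0 and 25 members passed for BDL in ENT, SLE and MLE pigs, 11, 19 and 4 for the diets in BDL pigs, 18, 7 and 0 in sham pigs, and 4, 0 and 3 for the responses. The lowest count of any member in any pig was 60 reads.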
